A study of Mus musculus with 9 samples.

Results

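The 37 genes described here encode the enzymes of glycolysis and of the pentose phosphate pathway, the kinases and regulators that set the flow through them, and the transcription factor Hif1a. They were chosen by symbol from the 24411 rows of the RNA-seq table, not by a limit on their values, and all 37 had a row. A total of 36 passed the filter on low values (1 TPM or more in 3 or more of the 9 libraries), and Ldhb did not. The libraries came from macrophages of C57BL/6 mice in long-term culture with M-CSF (100 ng/mL), a growth factor of macrophages. The yolk sac at E9.5 gave 3 YS lines, the fetal liver at E14.5 gave 3 FL lines and adult bone marrow gave 3 BM lines, with 1 library per line and no treatment besides M-CSF. Each line was a bulk culture grown from colonies that arose from the total cells of the tissue, pooled from several mice, and the labels give no sex. A line was the culture of its own dish or well, so lines of a group can stem from 1 cell pool, and the p-values below measure the spread between lines, which may not be a spread between mice. In bulk cultures, fewer cells of a type and less RNA per cell cannot be told apart.

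Glycolysis splits glucose into pyruvate in the cytosol and yields ATP and NADH, and lactate dehydrogenase turns pyruvate into lactate while it restores NAD. The pentose phosphate pathway branches off at glucose 6-phosphate. Its oxidative arm makes NADPH, which macrophages use for the oxidative burst and for defence against oxidants, and its non-oxidative arm makes ribose 5-phosphate for nucleotides or returns carbon to glycolysis. Many of these enzymes exist as isozymes encoded by separate genes, and many of the genes are known targets of the hypoxia-inducible factor HIF-1, whose regulated subunit is encoded by Hif1a.

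The promoters of the 7 genes that passed the test in the same direction in both YS and FL lines against BM lines, and by more than 2-fold in at least 1 of those comparisons, are shown because these genes differed from BM lines in both embryonic groups. Each run is the 250 bases before the 5′-most listed start of the gene, written 5′ to 3′ on the strand of the gene, from the RefSeq table of GRCm38.p6. Capitals mark ACGTG or GCGTG, the core that HIF factors bind, on either strand. The genes lower in both YS and FL lines come first, and the last 2 were higher in both.
Pgk1 (chrX:106186850-106187099, plus strand): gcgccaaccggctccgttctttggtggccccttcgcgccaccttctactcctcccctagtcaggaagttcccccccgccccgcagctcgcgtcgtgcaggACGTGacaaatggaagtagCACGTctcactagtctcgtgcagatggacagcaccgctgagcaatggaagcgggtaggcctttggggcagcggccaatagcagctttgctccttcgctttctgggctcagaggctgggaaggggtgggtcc
Pgam1 (chr19:41911621-41911870, plus strand): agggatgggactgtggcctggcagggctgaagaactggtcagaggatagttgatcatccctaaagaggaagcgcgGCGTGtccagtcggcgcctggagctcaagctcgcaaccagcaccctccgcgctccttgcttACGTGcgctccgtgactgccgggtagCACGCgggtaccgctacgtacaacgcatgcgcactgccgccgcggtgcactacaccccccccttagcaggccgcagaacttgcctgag
Pdk1 (chr2:71872974-71873223, plus strand): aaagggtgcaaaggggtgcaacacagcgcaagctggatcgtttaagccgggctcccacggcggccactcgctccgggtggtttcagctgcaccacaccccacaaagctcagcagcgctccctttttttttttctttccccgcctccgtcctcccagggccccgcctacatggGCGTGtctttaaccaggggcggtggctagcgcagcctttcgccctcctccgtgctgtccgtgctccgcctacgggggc
Tpi1 (chr6:124814159-124814408, minus strand): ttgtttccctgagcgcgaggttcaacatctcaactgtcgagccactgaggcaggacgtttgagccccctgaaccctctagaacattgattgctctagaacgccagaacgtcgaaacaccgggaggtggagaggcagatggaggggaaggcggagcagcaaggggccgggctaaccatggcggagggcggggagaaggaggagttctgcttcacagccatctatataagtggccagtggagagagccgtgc
Eno2 (chr6:124769674-124769923, minus strand): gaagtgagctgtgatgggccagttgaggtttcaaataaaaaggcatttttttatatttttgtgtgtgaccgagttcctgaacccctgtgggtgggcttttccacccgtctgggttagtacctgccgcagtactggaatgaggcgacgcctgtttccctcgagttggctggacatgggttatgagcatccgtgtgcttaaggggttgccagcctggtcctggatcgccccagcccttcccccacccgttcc
Pfkfb3 (chr2:11553930-11554179, minus strand): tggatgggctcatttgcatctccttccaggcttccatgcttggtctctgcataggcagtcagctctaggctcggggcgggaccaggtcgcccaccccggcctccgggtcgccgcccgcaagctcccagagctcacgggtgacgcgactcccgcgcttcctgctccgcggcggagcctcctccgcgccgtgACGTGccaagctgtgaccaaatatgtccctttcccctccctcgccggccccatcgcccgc
Pfkfb4 (chr9:108991652-108991901, plus strand): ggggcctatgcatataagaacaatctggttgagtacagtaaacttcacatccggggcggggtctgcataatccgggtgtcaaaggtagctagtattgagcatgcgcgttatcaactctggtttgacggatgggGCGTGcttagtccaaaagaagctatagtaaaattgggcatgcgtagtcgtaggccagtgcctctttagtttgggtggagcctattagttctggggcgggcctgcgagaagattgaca
The window of Pgam1 held 3 matches, that of Pgk1 held 2, those of Pdk1, Pfkfb3 and Pfkfb4 held 1 each, and those of Tpi1 and Eno2 held 0. Thus the letters occurred before genes that were lower and before genes that were higher in the embryonic lines. A match was present before 28 of the 37 genes (75.7%), 38.6% of all 27025 promoters listed and 44.6% of the 17224 promoters of genes with a row in the table. The longer CACGTG, which contains ACGTG and is the core bound by MYC, USF and related factors, was present before 4 of the 37 genes (10.8%) and 6.04% of all promoters. Of the 37 genes, 36 passed the filter on low values, whereas both background sets include genes that did not. No share over the 11753 tested genes was computed, so these shares do not compare the 37 with other expressed genes. These are descriptions of letters in a window, with no measurement of binding.

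All 10 macrophage markers examined, including Csf1r, which encodes the M-CSF receptor, were detected in the lines. Their summed level ranged from 4636 to 9783 TPM in the YS lines, 12178 to 28803 TPM in the FL lines and 12040 to 13718 TPM in the BM lines. Lyz2 was the highest of the 10 in every line. It was at 1163 to 3531 TPM, 5806 to 21976 TPM and 5986 to 7841 TPM in the same order. In each comparison, 8 of the 10 markers did not pass (limma, adjusted p under 0.1). The sum thus mainly follows Lyz2 and does not describe the 10 markers as a set. All 6 fibroblast, all 4 neutrophil (of 5 listed, 4 had a row) and all 5 T and B cell markers stayed under 1 TPM in every line. So did 5 hepatocyte and yolk sac endoderm, 4 megakaryocyte and mast cell and 3 dendritic cell markers. The exceptions were Afp (1.03 to 20.45 TPM), Gp9 (3.78 TPM in YS line 1, 0 in the FL and BM lines) and Zbtb46 (2.23 to 7.09 TPM). Zbtb46, a dendritic cell marker, was called higher in YS than in BM lines, with a log2 difference of 1.05. The summed level of 5 endothelial markers (mainly Kdr, except in YS line 1 and BM line 1, where Pecam1 gave more; Tek and Emcn stayed under 1 TPM) was 5.37 to 56.0 TPM in the YS lines, 18.9 to 51.8 TPM in the FL lines and 0.08 to 1.70 TPM in the BM lines. BM line 2 stood apart from the other BM lines: it had 331 TPM over 6 erythroid markers (0.14 to 14.5 TPM elsewhere), and it held a median of 14.1% of the YS line 2 level for 45 genes that YS line 2 expressed at 20 TPM or above and both its fellow BM lines below 0.5 TPM. None of the 37 genes was among those 45, and counts without BM line 2 are given below. Xist was at 303 and 176 TPM in FL lines 2 and 3 and at most 0.08 TPM in the other lines, and the Y-linked Ddx3y was at 47.7 TPM in FL line 1 and at most 0.03 TPM elsewhere. Pgk1, G6pdx, Pdha1 and Pdk3 are X-linked, and the part of these differences in their levels was not tested.

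BM lines had the highest summed level of the 37 genes, and the genes that were lower in YS or FL lines outnumbered those that were higher. The sum was 20211, 17437 and 16718 TPM in YS lines 1 to 3, 15517, 14206 and 15491 TPM in the FL lines and 20622, 21469.6 and 23316 TPM in the BM lines. The 3 FL lines were below all other lines, and all 3 YS lines were below all BM lines, with YS line 1 close to BM line 1. The group means were 1.81% of all TPM in the YS lines, 1.51% in the FL lines and 2.18% in the BM lines. The log2 ratio of means was -0.27 for YS over BM lines, -0.53 for FL over BM lines and 0.27 for YS over FL lines, with no test. Gapdh, Pkm and Aldoa were the 3 highest genes in each line.

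**Figure D1:**
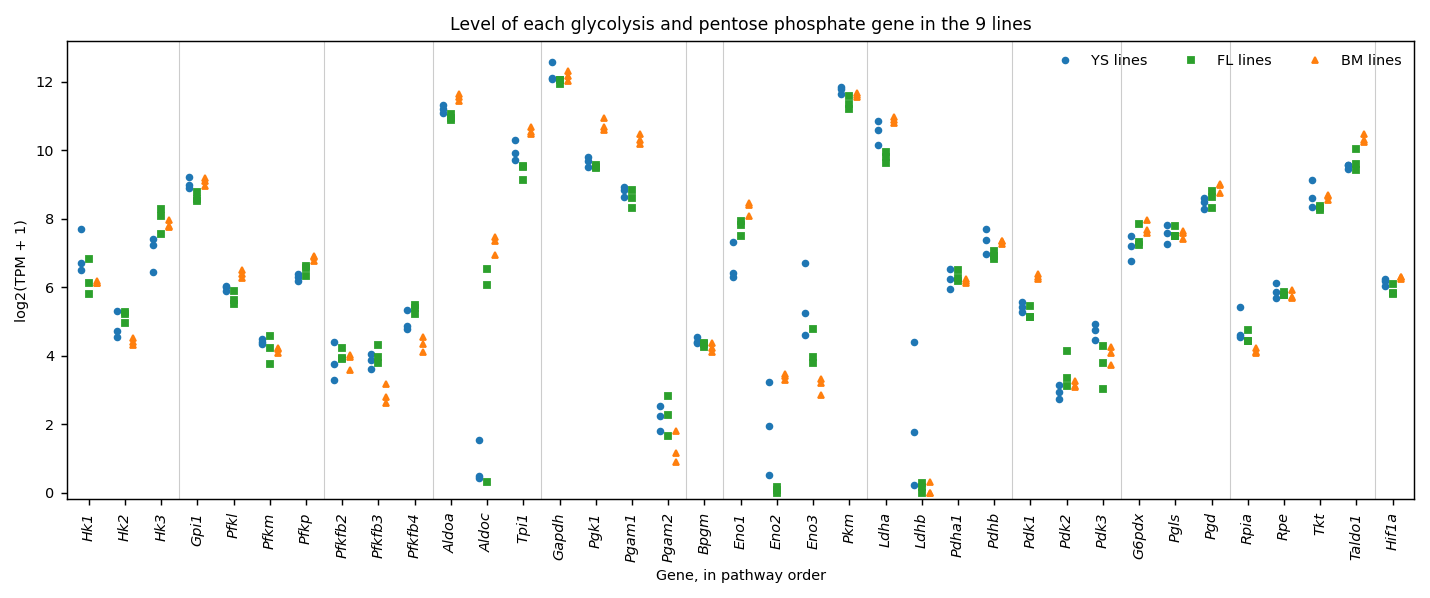
Level of each of the 37 genes as log2(TPM + 1) on the vertical axis, in pathway order on the horizontal axis, with 1 point per line (circles YS, squares FL, triangles BM). Gapdh, Pkm and Aldoa are at the top in all 9 lines, the BM points of Pgk1, Pgam1 and Taldo1 lie above all YS and FL points, and Aldoc and Ldhb spread over the widest ranges.

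In the limma fit on log2(TPM + 1) over all 9 libraries, 20 of the 36 tested genes passed at an adjusted p under 0.1 in the YS-BM comparison, 6 of them higher and 14 of them lower in the YS lines. That share was 55.6%, against 37.9% of all 11753 genes tested. By direction, 16.7% of the 36 genes were higher (23.5% of all genes) and 38.9% were lower (14.4% of all genes). In the FL-BM comparison 16 genes passed, a share of 44.4% against 27.6% of all genes, of which 4 were higher (11.1% against 17% of all genes) and 12 were lower (33.3% against 10.6% of all genes) in the FL lines. In the YS-FL comparison 7 genes passed, a share of 19.4% against 12.8% of all genes, of which 5 were higher (6.2% of all genes) and 2 were lower (6.56% of all genes) in the YS lines. The YS-BM and FL-BM comparisons share the BM libraries, so their values stand side by side and neither supports the other.

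At more than 2-fold, 6 genes were called in the YS-BM comparison (16.7%, against 12.8% of all genes), of which 1 was higher (7.57% of all genes) and 5 were lower (5.22% of all genes). The FL-BM comparison had 8 such genes (22.2%, against 10.3%), 2 higher (6.01% of all genes) and 6 lower (4.3% of all genes), and the YS-FL comparison had 3 (8.33%, against 3.79%), 2 higher (1.95% of all genes) and 1 lower (1.85% of all genes). The groups did not overlap for 23 of the 36 genes in the YS-BM comparison (63.9%, against 49% of all genes tested), 21 in the FL-BM comparison (58.3%, against 49.5%) and 10 in the YS-FL comparison (27.8%, against 26.1%). The median log2 difference of the 36 genes was -0.04, -0.30 and 0.17 in the same order, and that of all genes was 0.11, 0.09 and 0.02. Without BM line 2, 14, 13 and 2 of the 36 genes passed, beside 3231, 2269 and 709 of all genes. Without BM line 3, 9 passed in the YS-BM comparison, and the number over all genes fell as well, from 4455 to 2548. The count of 7 in the YS-FL comparison fell to 4 without YS line 1 or 2, to 2 without FL line 2, BM line 1 or BM line 2, to 1 without BM line 3 and to 0 without FL line 3 (9 at an unadjusted p under 0.05 in limma). Over all genes the count of 1500 there was 1298 and 1711 without YS line 1 or 2, 292 and 273 without FL line 2 or 3, and 625, 709 and 627 without BM line 1, 2 or 3. The count of 3 at more than 2-fold there fell to 1 without YS line 2, BM line 1 or BM line 2 and to 0 without FL line 3 or BM line 3. Over all genes, 446 were called at more than 2-fold there, 549 without YS line 2, 178 without FL line 3 and 285, 325 and 294 without BM line 1, 2 or 3.

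**Figure D2:**
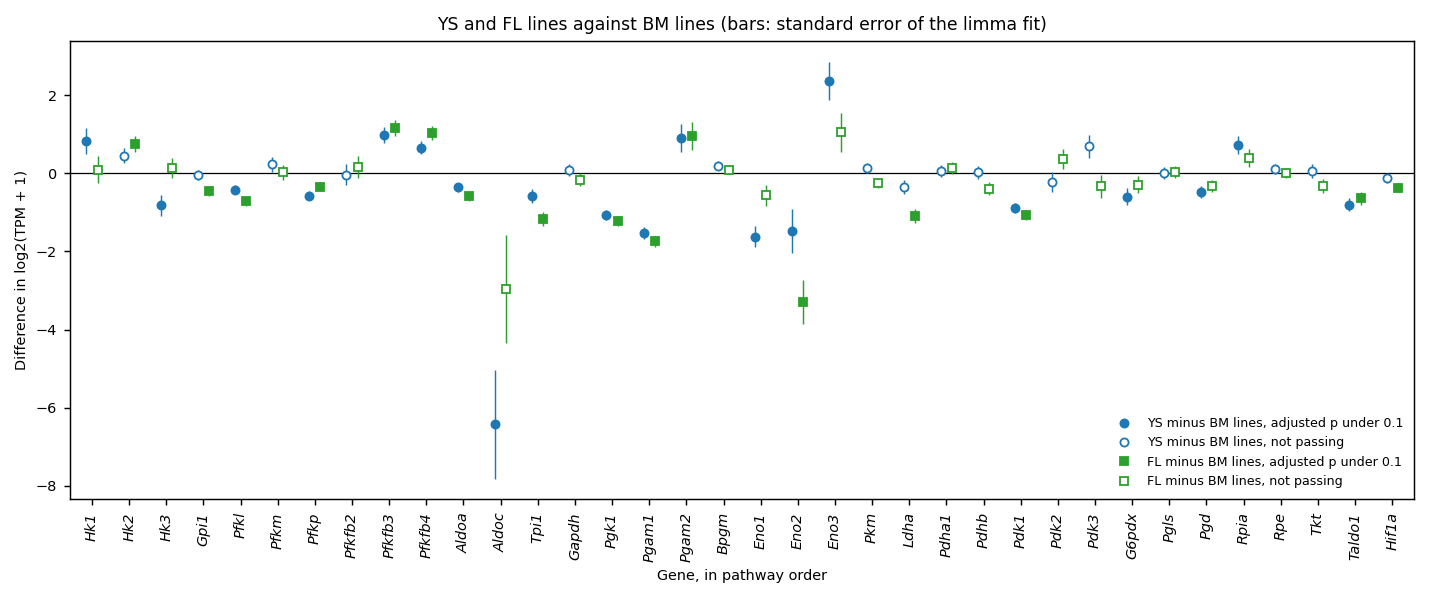
Difference in log2(TPM + 1) of YS lines (circles) and FL lines (squares) from BM lines for the 36 tested genes, with the standard error of the limma fit as bars and filled symbols for an adjusted p under 0.1. Most filled symbols lie below 0, Pfkfb3, Pfkfb4 and Pgam2 lie above 0 in both groups, and Aldoc has the largest difference and the largest errors.

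The first step of glycolysis is the phosphorylation of glucose by hexokinases. Hk1, the isozyme found in most tissues, rose in the YS lines: it was at 206, 89.98 and 104 TPM in the YS lines, 54.6, 113 and 68.1 TPM in the FL lines and 68.5, 72.2 and 68.8 TPM in the BM lines. Every YS line was above every BM line, while FL line 2 lay among the YS lines. The log2 difference was 0.82 ± 0.34 (SE) between YS and BM lines (adjusted p = 0.099) and 0.10 between FL and BM lines (adjusted p = 0.86). Hk3, an isozyme expressed in myeloid cells, fell in the YS lines, where it was at 149, 168 and 86.2 TPM, whereas FL lines had 188, 272 and 308 TPM and BM lines 217, 220.4 and 249 TPM. All 3 YS lines were below all the other lines, by 0.82 on the log2 scale against BM lines (adjusted p = 0.048) and by 0.95 against FL lines (adjusted p = 0.07). Hk2, the insulin- and hypoxia-responsive isozyme, was at 38.5, 25.2 and 22.2 TPM in the YS lines, 30.04, 38.03 and 36.1 TPM in the FL lines and 19.9, 21.6 and 18.7 TPM in the BM lines. It rose in the FL lines, with a log2 difference of 0.76 from BM lines (adjusted p = 0.03), and the YS difference of 0.46 did not pass (adjusted p = 0.12), although no YS line overlapped a BM line. The call of Hk1 was lost without YS line 1, where its level was highest (log2 difference of 0.46), without FL line 3 or without any 1 BM line (adjusted p from 0.13 to 0.23). It was also lost with quantile normalization, median-of-ratios scaling, a pseudocount of 0.1 TPM, no filter, no intensity trend and the replicate block, in all under 12 of 19 alternatives. That of Hk3 was lost against BM lines without BM line 1 (0.11) or 3 (0.14), with a log2 difference of -0.53 without YS line 3, and against FL lines without FL line 2 or 3 or any 1 BM line (0.11 to 0.20). That of Hk2 was lost without BM line 3 (0.11, with a range of 0.0041 to 0.11 over its alternatives).

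Upper glycolysis runs from glucose 6-phosphate to the triose phosphates. Of its 7 genes, 5 passed as lower in the FL lines and 5 in the YS lines, and none passed as higher. Of all genes, 10.6% and 14.4% passed as lower in these 2 comparisons. The summed level of upper glycolysis was 4369, 4176 and 3635 TPM in the YS lines, 3386, 2968 and 3485 TPM in the FL lines and 5053, 5362 and 5822 TPM in the BM lines, so the 3 groups did not overlap. Gpi1, the isomerase that makes fructose 6-phosphate, fell in the FL lines against BM lines by 0.45 on the log2 scale (adjusted p = 0.034), with 440.0, 368 and 377 TPM in the FL lines, 589.8, 503 and 479.8 TPM in the YS lines and 494, 545 and 577 TPM in the BM lines. It was higher in YS than in FL lines by 0.41 (adjusted p = 0.087), and YS and BM lines overlapped (log2 difference of -0.04, 95% interval -0.32 to 0.24). Phosphofructokinase is the committed step, and 2 of its 3 isozymes fell in both comparisons. Pfkl, the liver type, was at 63.9, 57.8 and 62.9 TPM in the YS lines, 58.8, 44.5 and 48.03 TPM in the FL lines and 75.9, 82.2 and 88.8 TPM in the BM lines, with every YS and FL line below every BM line. Its log2 difference from BM lines was -0.41 in the YS lines (adjusted p = 0.04) and -0.70 in the FL lines (adjusted p = 0.006). Pfkp, the platelet type, was at 70.8, 82.7 and 78.04 TPM, 93.9, 80.03 and 97.5 TPM and 116, 109 and 119 TPM in YS, FL and BM lines, respectively, with log2 differences of -0.57 (adjusted p = 0.0085) and -0.34 (adjusted p = 0.061). Here too no YS or FL line reached the lowest BM line. Pfkm, the muscle type, stayed between 12.6 and 23.0 TPM in all lines and passed in no comparison.

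Aldolase cleaves fructose 1,6-bisphosphate, and triose-phosphate isomerase (Tpi1) interconverts the products. Aldoa, the main aldolase of these cells, was at 2364, 2543 and 2156 TPM in the YS lines, 1975, 1898 and 2118 TPM in the FL lines and 2774, 3005 and 3210.3 TPM in the BM lines. The 3 groups did not overlap. The log2 difference from BM lines was -0.35 in the YS lines (adjusted p = 0.056) and -0.58 in the FL lines (adjusted p = 0.01). Aldoc, the brain type, had the largest difference of the 36 genes in the YS lines: 1.93, 0.34 and 0.40 TPM, compared with 163, 122 and 175 TPM in the BM lines. The FL lines split, with 65.4 TPM in line 1, 91.4 TPM in line 3 and 0.25 TPM in line 2, which lay at the level of YS lines. The log2 difference was -6.44 ± 1.39 (SE) between YS and BM lines (adjusted p = 0.012) and -2.95 ± 1.39 between FL and BM lines, which did not pass (adjusted p = 0.17). Tpi1 was at 1258, 969.7 and 839 TPM in the YS lines, 730.0, 559.8 and 741 TPM in the FL lines and 1413, 1481 and 1634 TPM in the BM lines, again without overlap between any of the groups. It fell by 0.58 in the YS lines (adjusted p = 0.039) and by 1.17 in the FL lines (adjusted p = 0.003) on the log2 scale. The YS lines exceeded the FL lines by 0.59 (adjusted p = 0.085). Of 4 tested near-identical copies of the 37 genes, the aldolase copies Aldoart1 (-0.57, adjusted p = 0.017) and Aldoart2 (-0.70, adjusted p = 0.048) were lower in the FL-BM comparison. Among these calls of upper glycolysis, that of Pfkl in the YS lines was lost without BM line 2 (0.10) or 3 (0.15). That of Aldoa in the YS lines was lost without YS line 3 (0.12), BM line 2 (0.14) or BM line 3 (0.19), and that of Tpi1 without BM line 3 (0.13). That of Aldoa was also lost with no filter on low values. In FL lines, Gpi1 was lost without FL line 3 (0.10), BM line 2 (0.10) or BM line 3 (0.14), and Pfkp without FL line 2 or any 1 BM line (0.11 to 0.20).

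Fructose 2,6-bisphosphate, the strongest activator of phosphofructokinase, is made and broken down by the PFKFB enzymes, and 2 of the 4 tested genes were higher in both embryonic groups. Pfkfb3, whose product has a high kinase activity, was at 15.6, 11.3 and 13.5 TPM in the YS lines, 12.7, 18.97 and 14.5 TPM in the FL lines and 5.12, 7.96 and 5.89 TPM in the BM lines. Pfkfb4 was at 26.7, 39.4 and 28.01 TPM, 41.1, 35.8 and 43.6 TPM and 19.4, 22.1 and 16.2 TPM in YS, FL and BM lines, respectively. All YS and FL lines exceeded all BM lines for both genes, and the YS and FL lines overlapped. Pfkfb3 rose by 0.99 ± 0.21 (SE) in the YS lines (adjusted p = 0.011) and by 1.16 ± 0.21 in the FL lines (adjusted p = 0.0063). The rise of Pfkfb4 was 0.67 in the YS lines (adjusted p = 0.026, 0.10 without BM line 3, with a range of 0.022 to 0.1 over its alternatives) and 1.03 in the FL lines (adjusted p = 0.0055). These levels were low beside those of the enzymes, and Pfkfb2 (8.86 to 20.3 TPM) passed in no comparison. The same held for Pfkfb1 (2.62 to 7.44 TPM), which is not among the 37 genes. Bpgm, which makes the red cell regulator 2,3-bisphosphoglycerate, was at 16.3 to 22.4 TPM in all lines and passed in no comparison either.

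Lower glycolysis, from glyceraldehyde 3-phosphate to pyruvate, combined 2 abundant enzymes that passed in no comparison, Gapdh and Pkm, with Pgk1, Pgam1 and Eno2, which fell in both YS and FL lines. Gapdh, the dehydrogenase that makes NADH and the highest of the 37 genes, was at 6072, 4313 and 4439 TPM in the YS lines, 4230.5, 3889 and 4222 TPM in the FL lines and 4132, 4597 and 5111 TPM in the BM lines. Its groups overlapped with BM lines, and the log2 difference was 0.09 in the YS lines (95% interval -0.29 to 0.46) and -0.16 in the FL lines (-0.53 to 0.21). Pkm, the pyruvate kinase of the last step, was at 3568, 3201 and 3665 TPM, 3045, 2352 and 2588 TPM and 3009.9, 3229.7 and 3149.8 TPM in YS, FL and BM lines, respectively. It did not pass against BM lines, with intervals of -0.15 to 0.45 and -0.54 to 0.06, and every YS line was above every FL line without passing (log2 difference of 0.39, adjusted p = 0.11). For Gapdh, 18.4% of the 75-nt windows of its GENCODE M21 transcripts are shared with other genes of the table, mostly Gm12070.

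Pgk1, which makes the first ATP of the pathway, was at 725, 899 and 824 TPM in the YS lines, 756, 710.0 and 735 TPM in the FL lines and 1549, 1630.0 and 1983 TPM in the BM lines. All YS and FL lines were below all BM lines, and the YS and FL ranges overlapped. It fell by 1.07 ± 0.13 (SE) in the YS lines (adjusted p = 0.0018) and by 1.22 ± 0.13 in the FL lines (adjusted p = 0.00087) on the log2 scale. FL line 1, in which Xist was near 0, had 756 TPM of this X-linked gene, beside 710.0 and 735 TPM in FL lines 2 and 3. The part of the Xist difference in the level of Pgk1 was not tested. Pgam1, the mutase of the next step, was at 486, 453 and 399 TPM in the YS lines, 385, 318 and 452 TPM in the FL lines and 1252, 1169.9 and 1417 TPM in the BM lines. Every BM line was more than 2-fold above every YS and FL line. The fall was 1.52 ± 0.15 in the YS lines (adjusted p = 0.00089) and 1.74 ± 0.15 in the FL lines (adjusted p = 0.00045). Pgam1 lies on chromosome 19, where the median log2 difference of the 404 genes tested was -0.52 between YS and BM lines and -0.79 between FL and BM lines. The medians of the other 19 chromosomes lay between -0.31 and 0.49 and between -0.13 and 0.44. The part of chromosome 19 in the difference of Pgam1 was not tested. The median of 0.49 was that of chromosome 9 (0.23 between FL and BM lines), which carries Pfkfb4 and Pkm. Its part in their differences was not tested either. Of the 75-nt windows, 52.8% for Pgk1 and 34.9% for Pgam1 occur in other annotated genes without a row in the table. Pgam2, the muscle mutase, was at 3.68, 4.78 and 2.48 TPM in the YS lines, 3.82, 2.17 and 6.05 TPM in the FL lines and 1.22, 2.46 and 0.87 TPM in the BM lines. It rose by 0.90 in the YS lines (adjusted p = 0.092) and 0.97 in the FL lines (adjusted p = 0.094) from levels near the filter, with FL line 2 below BM line 2. Its calls were lost without YS line 1, YS line 2, FL line 1, BM line 1 or BM line 3 in the YS comparison (adjusted p from 0.12 to 0.26). In the FL comparison they were lost without YS line 2, FL line 1, FL line 3, BM line 1 or BM line 3 (0.11 to 0.28). Both calls were also lost with quantile normalization, median-of-ratios scaling, a pseudocount of 4 TPM, no filter and the replicate block.

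Enolase makes phosphoenolpyruvate, and its 3 genes did not move together. Eno1, the form found in most cells, was at 77.9, 84.7 and 159.9 TPM in the YS lines, 225, 178 and 244 TPM in the FL lines and 267, 348 and 339 TPM in the BM lines, and the 3 groups did not overlap. Taken as its own row, it fell by 1.62 in the YS lines against BM lines (adjusted p = 0.0046) and by 1.06 against FL lines (adjusted p = 0.059). The log2 difference of -0.56 in the FL-BM comparison did not pass (adjusted p = 0.18). However, the row of its near-identical copy Eno1b, with which 22.6% of the Eno1 windows are shared, was far higher, at 1856, 1701 and 1726 TPM, 1845, 857 and 1632 TPM and 2272, 2010.5 and 2101 TPM in YS, FL and BM lines, respectively. Reads could be divided between the 2 rows, so the level of Eno1 alone is uncertain. The summed level of both, an alternative added after the values were seen, was 1869 ± 75.4 TPM in the YS lines, 1660 ± 551 TPM in the FL lines and 2446 ± 90.4 TPM in the BM lines (SD over 3 lines). On that sum the log2 difference was -0.39 in the YS-BM comparison (adjusted p = 0.24 in limma), -0.62 in the FL-BM comparison (adjusted p = 0.099) and 0.23 in the YS-FL comparison (adjusted p = 0.56). The YS-BM call was thus lost, an FL-BM call was gained, and the YS-FL sign turned.

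**Figure D3:**
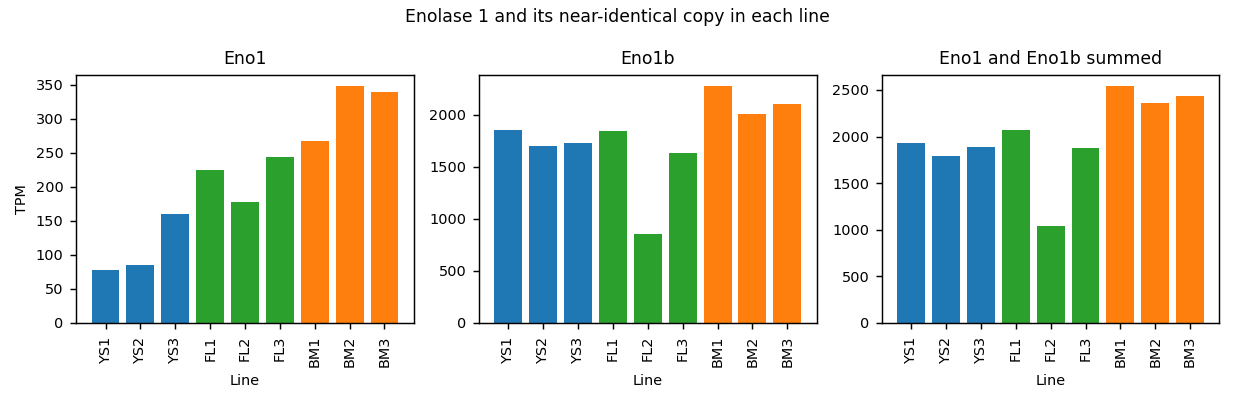
TPM of Eno1, of its near-identical copy Eno1b and of both summed, on the vertical axis, in each of the 9 lines on the horizontal axis (blue YS, green FL, orange BM). Eno1 alone separates YS, FL and BM lines, whereas in the sum only the BM lines stand apart, and FL line 2 is the lowest at 1035 TPM.

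Eno2, the neuronal enolase, was at 8.80, 10.03 and 9.58 TPM in the BM lines, 8.48, 2.88 and 0.44 TPM in the YS lines and at most 0.13 TPM in the FL lines. It fell by 3.30 ± 0.56 (SE) in the FL lines (adjusted p = 0.005) and by 1.48 ± 0.56 in the YS lines (adjusted p = 0.081) on the log2(TPM + 1) scale, which understates changes of genes this low. The YS lines spread from near the BM level to near 0, and the YS and FL lines differed by 1.82 (adjusted p = 0.092). Eno3, the muscle enolase, went the other way: it was at 102, 36.7 and 23.1 TPM in the YS lines, 14.7, 12.7 and 26.6 TPM in the FL lines and 6.28, 8.92 and 8.27 TPM in the BM lines. All YS and FL lines exceeded all BM lines. It rose by 2.38 ± 0.49 in the YS lines (adjusted p = 0.01). The difference of 1.05 in the FL lines did not pass (adjusted p = 0.17). The call of Eno2 in the YS lines was lost without YS line 2 or 3, FL line 1 or 3 or any 1 BM line (adjusted p from 0.10 to 0.18), and its log2 difference from BM lines without YS line 3 was -0.79. It was also lost with a pseudocount of 0.1 TPM, no filter and only the 6 libraries compared. In the YS-FL comparison, the call of Eno2 was lost without any 1 line except YS line 3 (0.12 to 0.21, with a log2 difference of 1.15 without YS line 1), and that of Eno1 without YS line 1 or 2, FL line 2 or 3 or BM line 3 (0.10 to 0.17).

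Lactate dehydrogenase A, which makes lactate from pyruvate, separated FL lines from both other groups. Ldha was at 1831, 1549.7 and 1148 TPM in the YS lines, 895, 796 and 977 TPM in the FL lines and 1789, 1889 and 1986 TPM in the BM lines. Every FL line was below every other line, while YS line 1 lay within the range of BM lines. The fall was 1.09 ± 0.17 (SE) on the log2 scale against BM lines (adjusted p = 0.0038). The YS lines exceeded the FL lines by 0.74 (adjusted p = 0.051, 0.15 without FL line 2 and 0.12 without FL line 3, with a range of 0.025 to 0.18 over its alternatives). The difference of -0.35 between YS and BM lines did not pass (adjusted p = 0.16). Ldhb, the heart type, was listed at 20.1 TPM in YS line 1, 2.40 TPM in YS line 2 and at most 0.25 TPM in the 7 other lines, and was not tested. Inside the mitochondrion, pyruvate is used by the pyruvate dehydrogenase complex, whose E1 subunits Pdha1 (60.8 to 90.9 TPM) and Pdhb (111 to 206 TPM) passed in no comparison.

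The PDK kinases switch that complex off, and Pdk1 and Pdk3 went different ways. Pdk1, a known HIF-1 target, was at 46.5, 42.04 and 37.8 TPM in the YS lines, 42.5, 34.2 and 33.9 TPM in the FL lines and 76.9, 74.6 and 83.4 TPM in the BM lines. Every BM line was far above every YS and FL line. The fall was 0.88 ± 0.13 (SE) in the YS lines (adjusted p = 0.003) and 1.07 ± 0.13 in the FL lines (adjusted p = 0.0013). Pdk3, which is X-linked, was at 21.1, 25.7 and 29.7 TPM in the YS lines, 12.7, 18.3 and 7.07 TPM in the FL lines and 12.3, 15.9 and 17.97 TPM in the BM lines. Each YS line exceeded each FL and BM line, with a log2 difference of 1.03 from FL lines (adjusted p = 0.083) and of 0.69 from BM lines, which did not pass (adjusted p = 0.12). The Pdk3 call was lost without YS line 2 or 3, FL line 1 or 3 or any 1 BM line (adjusted p from 0.12 to 0.18). Pdk2 was at 5.66 to 16.6 TPM, highest in FL line 2, and passed in no comparison.

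Of the oxidative arm of the pentose phosphate pathway, the 2 enzymes that make NADPH fell in the YS lines, whereas none of the 3 genes passed in the FL lines. G6pdx, the rate-limiting dehydrogenase, was at 107, 179.9 and 145 TPM in the YS lines, 149, 227 and 158 TPM in the FL lines and 192, 204 and 248 TPM in the BM lines. YS lines were below BM lines by 0.60 on the log2 scale (adjusted p = 0.077), and FL line 2, one of the lines with Xist, was within the BM range. Pgd, which takes the next oxidation step, was at 308, 357 and 386 TPM, 398, 316 and 448 TPM and 503, 433 and 513 TPM in YS, FL and BM lines, respectively. Its fall in the YS lines was 0.47 (adjusted p = 0.05). FL lines overlapped both groups for Pgd. Pgls, the lactonase between them, was at 151 to 223 TPM in all lines, with a log2 difference of 0.01 in the YS lines (95% interval -0.35 to 0.36) and 0.04 in the FL lines (-0.31 to 0.40) against BM lines. The call of G6pdx was lost with no filter on low values and without YS line 1 or 3 or any 1 BM line (adjusted p from 0.11 to 0.23), and that of Pgd without YS line 1 (0.11), BM line 1 (0.15) or BM line 3 (0.16).

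In the non-oxidative arm, transaldolase fell in both embryonic groups and ribose-5-phosphate isomerase rose in the YS lines. Taldo1, the transaldolase, was at 762, 765 and 695 TPM in the YS lines, 688, 1058 and 773 TPM in the FL lines and 1419.7, 1201 and 1251 TPM in the BM lines. All BM lines were above all others. The fall was 0.80 ± 0.16 (SE) in the YS lines (adjusted p = 0.0097) and 0.64 ± 0.16 in the FL lines (adjusted p = 0.026, 0.10 without BM line 1, with a range of 0.0071 to 0.1 over its alternatives). Rpia, the isomerase that makes ribose 5-phosphate, was at 41.6, 22.6 and 23.5 TPM in the YS lines, 25.7, 20.3 and 20.4 TPM in the FL lines and 17.6, 16.1 and 15.8 TPM in the BM lines. No YS or FL line fell to the BM level, and the difference passed in the YS lines (0.73, adjusted p = 0.041, 0.10 without BM line 2 and 0.12 without BM line 3, with a range of 0.026 to 0.12 over its alternatives) but not in the FL lines (0.40, adjusted p = 0.26). Without YS line 1, where Rpia was highest, its YS-BM log2 difference was 0.46 and passed. Tkt, the transketolase, was at 555, 387 and 323 TPM in the YS lines, 329.9, 302 and 319 TPM in the FL lines and 408, 374 and 401 TPM in the BM lines. It passed in no comparison, although every FL line was below every BM line. Rpe, the epimerase of the arm, was at 50.5 to 69.1 TPM in all lines and passed in no comparison.

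**Figure D4:**
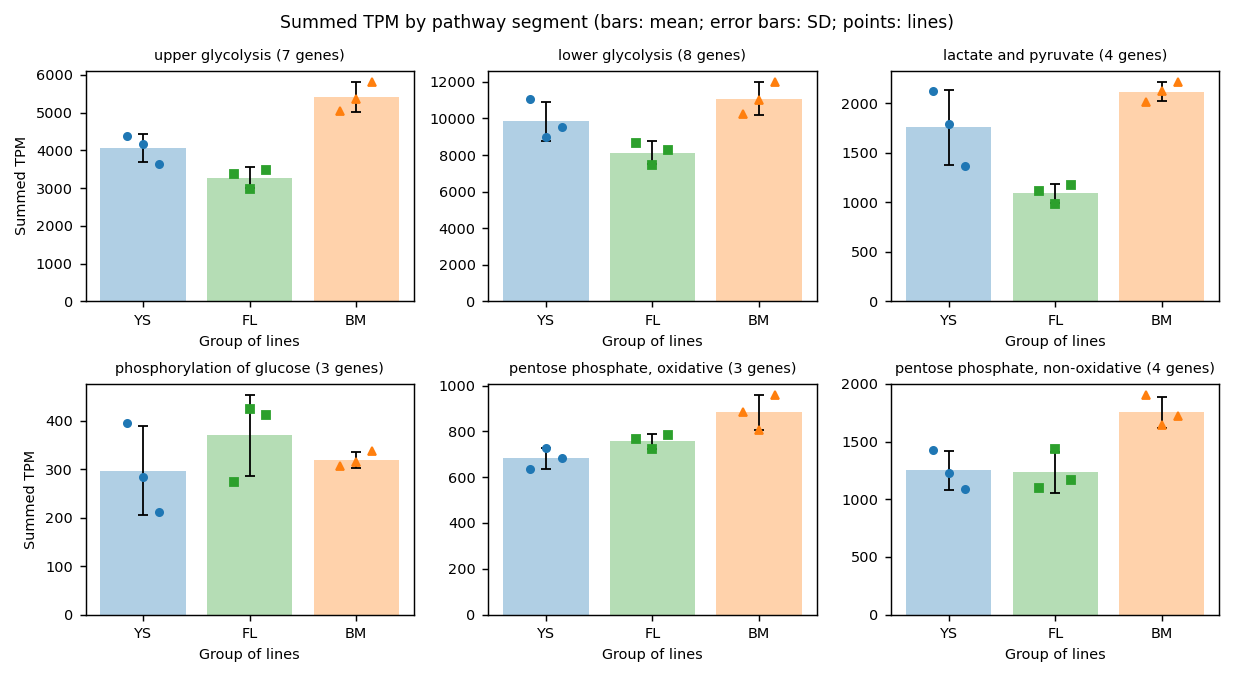
Summed TPM of the genes of 6 pathway segments in YS, FL and BM lines, with bars for the mean of 3 lines, error bars for the SD and 1 point per line, each vertical axis starting at 0. BM lines are above all YS and FL lines in upper glycolysis and in both arms of the pentose phosphate pathway, FL lines are below all others in lower glycolysis and for lactate and pyruvate, and the 3 groups overlap for the hexokinases.

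In both arms of the pentose phosphate pathway all YS and FL lines lay below all BM lines. The oxidative arm had 682 ± 45.2 TPM in the YS lines, 757 ± 32.4 TPM in the FL lines and 883 ± 75.9 TPM in the BM lines (SD over 3 lines). The non-oxidative arm had 1251 ± 168 TPM, 1233 ± 177 TPM and 1756 ± 135 TPM in that order. The lactate and pyruvate genes had 1758 ± 379 TPM, 1090.0 ± 96.2 TPM and 2118 ± 100.4 TPM in that order. Lower glycolysis had 9851 ± 1064 TPM, 8131 ± 612 TPM and 11079.8 ± 898 TPM. In both of these segments all FL lines were below all others, and YS and BM lines overlapped. The hexokinases had 296 ± 91.8 TPM, 369 ± 83.7 TPM and 319 ± 16.2 TPM, with overlap between all groups. No test was made on these sums.

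TPM is a level per transcript length, so isozymes of one step can be set against each other within a library. The shares are among the isozymes within the 37 genes and so leave out Pfkfb1. At least 1 isozyme share did not overlap between groups in 7 of 8 enzyme families for YS against BM lines, 6 for FL against BM lines and 4 for YS against FL lines. A family counted when any 1 of its isozymes separated, and no such count over other gene families was made. The 7 include lactate dehydrogenase, where the Ldha share was 99.9861% in YS line 3 and 99.9868% in BM line 2. Ldhb, which did not pass the filter, was at 0.16 and 0.25 TPM in these lines, so this separation rests on values near 0. Of all single genes tested, the TPM of 49%, 49.5% and 26.1% did not overlap in the same order. Hk3 made up 37.9%, 59.3% and 40.6% of hexokinase TPM in the YS lines, compared with 69.3% ± 5.23 (SD, n = 3 lines) in the FL lines and 71.7% ± 2.03 in the BM lines, and Hk1 filled most of the difference in the YS lines. Eno3 made up 54.2%, 29.5% and 12.6% of the enolase TPM over Eno1, Eno2 and Eno3 in the YS lines, 7.56% ± 2.01 in the FL lines and 2.33% ± 0.10 in the BM lines. These enolase shares leave out Eno1b, whose row was several-fold higher than that of Eno1, and by more in the YS lines. They are thus not shares of all enolase. Eno1 and Eno1b summed to 1934, 1786 and 1886 TPM in the YS lines, beside 102, 36.7 and 23.1 TPM of Eno3. In FL line 3 the sum was 1875 TPM beside 26.6 TPM of Eno3. With Eno1b counted, Eno3 was therefore a small part in every line, and its share overlapped between YS and FL lines. Pdk1 made up 56.6% ± 5.53 of PDK TPM in the YS lines, 61.6% ± 10.5 in the FL lines and 77.1% ± 2.15 in the BM lines. The remainder was mainly Pdk3 in the YS lines and both Pdk2 and Pdk3 in the FL lines. Pfkm made up 12.7% ± 0.87 of phosphofructokinase TPM in the YS lines and 7.93% ± 0.31 in the BM lines. Each share that did not overlap had a p of 0.1 in the exact two-sided permutation test, the smallest that 3 lines against 3 can give, and 0.18 after Benjamini-Hochberg adjustment over 54 tests, so no share difference could reach 0.05.

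**Figure D5:**
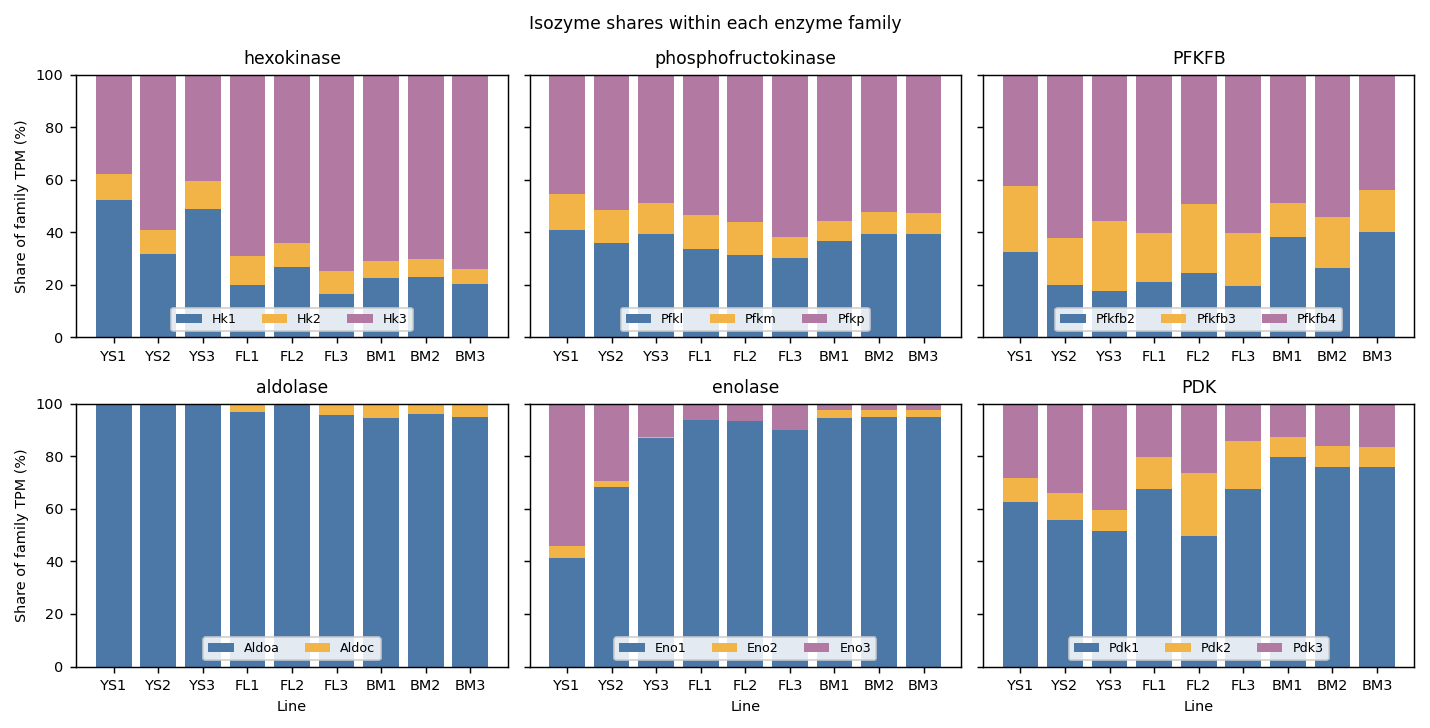
Share of each isozyme in the summed TPM of its family (vertical axis, percent) in each of the 9 lines (horizontal axis) for hexokinase, phosphofructokinase, PFKFB, aldolase, enolase (without Eno1b) and PDK. Hk1 takes a larger share in the YS lines, Eno3 exceeds 10% only in the YS lines, Aldoc is visible in the BM lines and in FL lines 1 and 3, and Pdk1 takes the largest share of PDK in the BM lines.

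Hif1a was at 64.7, 71.2 and 74.7 TPM in the YS lines, 67.8, 54.6 and 56.2 TPM in the FL lines and 77.3, 74.5 and 77.5 TPM in the BM lines. It fell in the FL lines by 0.36 on the log2 scale (adjusted p = 0.052). That call was lost without FL line 2 or 3 or any 1 BM line (adjusted p from 0.12 to 0.16). The YS-BM difference did not pass (adjusted p = 0.43). Of 8 other HIF regulators tested, the YS-BM comparison had 1 higher and 1 lower, and the FL-BM comparison 2 higher and 2 lower. These are shares of 25% and 50%, against 37.9% and 27.6% of all genes. Epas1, which encodes the HIF-2 subunit, was at 55.6, 41.3 and 32.9 TPM in the YS lines, 48.3, 38.6 and 52.98 TPM in the FL lines and 15.98, 19.1 and 12.7 TPM in the BM lines. It rose by 1.37 (adjusted p = 0.0044) and 1.497 (adjusted p = 0.0029). Thus every YS and FL line exceeded every BM line for Epas1. Among 17 tested HIF target genes outside the 37, the YS-BM comparison had 1 higher and 4 lower, the FL-BM comparison 2 higher and 6 lower, with median log2 differences of -0.13 and -0.18. The shares passing were 29.4% and 47.1%, against the same 37.9% and 27.6% of all genes. Ddit4, an inhibitor of mTORC1 signaling, fell by 2.28 in the YS lines (adjusted p = 0.0033) and 2.63 in the FL lines (adjusted p = 0.0017). Plod2, a collagen lysyl hydroxylase, fell by 4.61 (adjusted p = 0.009) and 3.44 (adjusted p = 0.031, 0.10 without BM line 1, with a range of 0.0065 to 0.11 over its alternatives). Vegfa fell in the FL lines by 1.73 (adjusted p = 0.013), and was at most 0.37 TPM in any FL line. Adm, which encodes the peptide adrenomedullin, rose instead in the YS lines, by 2.11 against BM lines (adjusted p = 0.017) and 2.87 against FL lines (adjusted p = 0.025). The prolyl hydroxylase subunit P4ha2 rose in the FL lines by 3.37 (adjusted p = 0.096), a call that was lost under 14 of 19 alternatives, both other scalings among them, and without YS line 2 or any 1 FL or BM line (0.11 to 0.25). Also called at more than 2-fold, and named after their values were seen, were Bnip3, a mitophagy receptor, and Ndrg1. Bnip3 fell by 0.91 in the YS lines (adjusted p = 0.015) and 1.70 in the FL lines (adjusted p = 0.0015), and Ndrg1 rose in the FL lines by 1.06 (adjusted p = 0.016).

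Genes listed for glucose and lactate transport differed as well. Of 11 tested transport genes, the YS-BM comparison had 5 higher and 2 lower, the FL-BM comparison 3 higher and 3 lower, and the YS-FL comparison 3 higher and 0 lower (limma, adjusted p under 0.1). These are shares of 63.6%, 54.5% and 27.3%, against 37.9%, 27.6% and 12.8% of all genes. Slc2a1 (GLUT1), the basal glucose carrier, was at 90.03, 80.3 and 77.9 TPM in the YS lines, 64.99, 52.4 and 63.8 TPM in the FL lines and 154, 146 and 155 TPM in the BM lines. The 3 groups did not overlap. The fall was 0.87 ± 0.11 (SE) in the YS lines (adjusted p = 0.0022) and 1.32 ± 0.11 in the FL lines (adjusted p = 0.00043). Slc2a6 (GLUT6) went up, with 95.8, 83.9 and 146 TPM in the YS lines, 89.5, 19.4 and 74.8 TPM in the FL lines and 10.5, 21.2 and 5.85 TPM in the BM lines. The differences were 3.14 (adjusted p = 0.0079) and 2.11 (adjusted p = 0.04). FL line 2 lay within the range of BM lines for Slc2a6, and the FL call was lost without FL line 1 or 3 or BM line 1 or 3 (0.12 to 0.14). Slc16a3 (MCT4), a lactate exporter, was at 0.21, 25.9 and 0.51 TPM in the FL lines, 136, 113 and 66.4 TPM in the YS lines and 190.1, 199 and 229 TPM in the BM lines. All FL lines were below all YS lines and these below all BM lines, although the YS-BM difference of -1.02 did not pass (adjusted p = 0.47). The log2 difference was -5.82 ± 1.01 between FL and BM lines (adjusted p = 0.0055) and 4.80 in the YS-FL comparison (adjusted p = 0.042, 0.13 without FL line 3, with a range of 0.00011 to 0.16 over its alternatives). Thus FL lines were low for both Ldha and this carrier. Slc16a1 (MCT1), which carries lactate and pyruvate, rose in the YS lines by 1.06 against BM lines (adjusted p = 0.029) and 1.22 against FL lines (adjusted p = 0.054, 0.16 without FL line 2 and 0.15 without FL line 3, with a range of 0.025 to 0.18 over its alternatives). Slc2a3 (GLUT3) rose in the YS lines by 2.05 (adjusted p = 0.069) and was at most 13.0 TPM, a call that was lost without YS line 1 or any 1 BM line (0.13 to 0.17, with a log2 difference of 1.24 without YS line 1) and with no filter or a pseudocount of 4 TPM. Slc16a6, a further monocarboxylate carrier named after its values were seen, rose in the FL lines by 1.06 (adjusted p = 0.033, 0.12 without BM line 3, with a range of 0.0055 to 0.12 over its alternatives).

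Of 12 other tested glycolysis genes, 3 were higher and 2 lower in each of the YS-BM and FL-BM comparisons, a share of 41.7%, against 37.9% and 27.6% of all genes. Galm, which interconverts the anomers of hexoses, was the only one called at more than 2-fold, with a fall of 1.58 in the YS lines (adjusted p = 0.087) that was lost without any 1 YS or BM line (0.12 to 0.19), with no filter and with a pseudocount of 0.1 TPM. Among 9 other genes of mitochondrial pyruvate entry and use, the YS-BM comparison had 1 higher and 2 lower, and the FL-BM comparison 1 lower. The shares were 33.3% and 11.1%. Pcx, the pyruvate carboxylase that makes oxaloacetate, was at 4.78, 8.18 and 7.94 TPM in the YS lines, 6.12, 4.87 and 4.20 TPM in the FL lines and 20, 20.9 and 26.7 TPM in the BM lines. Every BM line was more than 2-fold above every other line, and Pcx fell by 1.58 in the YS lines (adjusted p = 0.0029) and 1.96 (adjusted p = 0.0011). In the pentose phosphate list, 1 of 7 other genes (14.3%) was lower in each of these comparisons and none was called at more than 2-fold. The NRF2 pathway, which induces several NADPH-making enzymes, had 12 tested genes, with 2 higher and 5 lower in the YS-BM comparison, 1 higher and 2 lower in the FL-BM comparison, and 2 higher and 3 lower in the YS-FL comparison. These are shares of 58.3%, 25% and 41.7%, against 37.9%, 27.6% and 12.8% of all genes. Nqo1, a quinone reductase and NRF2 target, was at 34.5, 26.5 and 38.5 TPM in the BM lines, 0.38, 0.10 and 0 TPM in the YS lines and 0.11, 14.6 and 0.30 TPM in the FL lines. It fell by 4.88 (adjusted p = 0.0062) and 3.58 (adjusted p = 0.021). FL line 2 was the only embryonic line above 1 TPM for Nqo1. Me1, the cytosolic malic enzyme, which also makes NADPH, fell in the YS lines by 2.33 (adjusted p = 0.042, 0.11 without BM line 1 and 0.12 without BM line 3, with a range of 0.021 to 0.12 over its alternatives), and its log2 difference without YS line 1 was -1.37. Gclm, a subunit of the enzyme that starts glutathione synthesis, fell in the YS lines by 1.35 against BM lines (adjusted p = 0.053) and by 1.88 against FL lines (adjusted p = 0.053). The first of these calls was lost without YS line 1 or 3 or any 1 BM line (0.11 to 0.15) and the second without FL line 2 or 3 (0.13 to 0.16). Slc7a11, the cystine importer, rose in the YS lines by 1.12 against BM lines (adjusted p = 0.082) and by 1.54 against FL lines (adjusted p = 0.072). Its calls were lost without any 1 of YS lines 1 and 2, FL line 2 and the BM lines (0.10 to 0.19) and without any 1 line except YS line 3 (0.11 to 0.18), respectively, and the YS-BM log2 difference without YS line 1 was 0.69. The YS-BM call was also lost with both other scalings, and both calls with no filter, with only the 6 libraries compared and with the replicate block. Hmox1, which degrades haem, was lower in YS than in FL lines by 1.48 (adjusted p = 0.07), a call that was lost without YS line 1 or 3, FL line 2 or 3 or any 1 BM line (0.11 to 0.20), with no filter and with only the 6 libraries compared. Named after their values were seen, Srxn1, which repairs oxidized peroxiredoxins, fell in the YS lines by 1.39 against BM lines (adjusted p = 0.0032), and Keap1, the inhibitor of NRF2, rose by 1.17 (adjusted p = 0.038). The Srxn1 call held under all 19 alternatives. The Keap1 call was lost without BM line 1 (0.10) or BM line 3 (0.11), over a range of 0.031 to 0.11, and its log2 difference was 0.74 without YS line 3.

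In the YS-FL comparison, the 5 genes that were higher in the YS lines were Eno2, Pdk3, Ldha, Tpi1 and Gpi1, and the 2 that were lower were Eno1, with the limit given for its copy, and Hk3. None of these 7 calls held under all 19 alternatives to the fit (not counting the enolase sum), compared with 9 of the 20 YS-BM calls (Pfkp, Pfkfb3, Aldoc, Pgk1, Pgam1, Eno1, Eno3, Pdk1 and Taldo1) and 10 of the 16 FL-BM calls (Pfkl, Pfkfb3, Pfkfb4, Aldoa, Tpi1, Pgk1, Pgam1, Eno2, Ldha and Pdk1). All 7 had an adjusted p from 0.051 to 0.092 in limma, so the alternative at a rate under 0.05 dropped them by its threshold alone. Each was also lost with only the 6 libraries of the comparison, where 98 of all genes passed. No share of all genes is given beside these counts of calls that held. Of the 7, Gpi1 and Tpi1 were lost without any 1 of YS lines 1 and 2, FL lines 2 and 3 and BM lines 1, 2 and 3, with adjusted p from 0.11 to 0.23 in limma. Gapdh, Pkm and Aldoa also did not overlap between YS and FL lines, each higher in the YS lines, and did not pass.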

How the data were processed

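Poly(A)-selected, strand-specific RNA-seq libraries of the 9 lines gave the authors 75-nt single-end reads. One table of TPM was deposited by the authors for 24411 gene symbols. It was made with Trim Galore 0.6.6, STAR 2.7.9a and RSEM 1.3.3 according to the submitters' processing notes. The genome build and annotation are not given in the sources used here. TPM carries no read depth, so no counting error is given, and precision was judged from the 3 lines of a group.

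The 37 genes and all other lists were chosen with earlier results of these data known. Differences were tested with limma 3.58.1 in R 4.3.3 on log2(TPM + 1) for the 11753 genes that reached 1 TPM in 3 or more of the 9 libraries. The 3 groups entered 1 model, eBayes was run with its trend option, and each comparison had its own Benjamini-Hochberg adjustment. Genes passed at an adjusted p under 0.1 and were called at more than 2-fold by the study's thresholds. Isozyme shares were compared by exact two-sided permutation tests. Values in every line were given for genes that passed in any comparison and for the main isozyme of each step, and from the other lists genes called at more than 2-fold were named, at most 5 a list by size of difference, with 5 further genes named after their values were seen. Chromosomes came from the RefSeq table of GRCm38.p6 (11160 of 11753 symbols matched) and shared windows from GENCODE M21 transcripts. Alternatives changed the pseudocount, filter, scaling, variance trend, libraries, threshold and lines, or added a block for the line number.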

Additional observations from a re-analysis of the deposited data

How the results depend on the processing

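Depth is unknown for TPM, and the 3 lines per group limit every comparison. No alternative turned the direction of a called gene, apart from the sum of Eno1 and Eno1b, chosen after seeing the data, which turned Eno1 in the YS-FL comparison to 0.23 (log2). The 7 genes passing in the YS-FL comparison became 2 with no filter on low values, 2 with the replicate block, 0 with only the 6 libraries of the comparison (7 at an unadjusted p under 0.05 in limma, and 98 of all genes passing) and 0 at a false discovery rate under 0.05 (12 at an unadjusted p under 0.05, and 479 of all genes passing, against 1500). The 3 called at more than 2-fold there became 1 with a pseudocount of 4 TPM, 1 with no filter, 1 with the replicate block, 0 with only 6 libraries and 0 at the stricter rate. The labels number the lines 1 to 3 in each group without calling them pairs. Deviations of same-numbered lines from their group means correlated between -0.12 and 0.09 (9 pairs), and those of other lines between -0.14 and 0.12 (18 pairs). Thus no pairing by number was seen, and a shared preparation was not tested. The replicate block left 18 genes passing in the YS-BM comparison and 15 in the FL-BM comparison. With 1 line left out in turn, the genes passing ranged from 9 to 21, from 11 to 20 and from 0 to 9 (YS-BM, FL-BM and YS-FL comparison), those at more than 2-fold from 4 to 8, from 7 to 9 and from 0 to 3, and the families with a separated isozyme share from 7 to 8, from 6 to 8 and from 4 to 5. The log2 ratio of the summed TPM ranged from -0.35 to -0.21, from -0.57 to -0.48 and from 0.18 to 0.32, and that of FL over BM lines was -0.63 with median-of-ratios scaling (-0.53 as deposited). The median difference of all genes shifted by -0.13 and -0.10 against BM lines with quantile normalization and by -0.11 and -0.09 with median-of-ratios scaling.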
